A study of Mus musculus with 8 samples.

Results

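The genes described here are 9 genes of the neuromuscular junction and of the response of muscle to denervation, out of the 47643 genes measured in quadriceps muscle. They were taken by symbol: *Chrna1*, *Chrnb1*, *Chrnd*, *Chrne* and *Chrng*, which encode the subunits of the muscle acetylcholine receptor, the receptor kinase gene *Musk*, and *Ncam1*, *Runx1* and *Gadd45a*, which are known to be induced when muscle loses its nerve. All 9 were found in the table. RNA was sequenced from snap-frozen quadriceps of 4 knockout (*Nup210*-/-) and 4 wild-type (*Nup210*+/+) mice, as labelled, all C57BL/6 (C57BL/6J by backcross in the study's methods), with 1 library per mouse. In the knockout line the floxed exon 2 of *Nup210*, a gene for a membrane nucleoporin, was deleted through Hprt-Cre, so the loss is constitutive and not limited to muscle. The controls carry the wild-type gene, the labels name no treatment, and the age and sex of these mice are not given in the sources used here. The comparison asks how muscle transcripts differ between mice with and without Nup210.

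At the neuromuscular junction the motor nerve releases acetylcholine onto a small patch of the fiber surface packed with receptors. The nerve, through agrin, Lrp4 and the kinase MuSK, gathers the receptors there, and the few nuclei beneath the synapse transcribe the subunit genes. Adult receptors hold the epsilon subunit (*Chrne*) where fetal receptors hold the gamma subunit (*Chrng*). When the nerve is cut, electrical activity stops and the alpha, gamma and delta subunits, Musk, Ncam1, Runx1 and Gadd45a are transcribed along the whole fiber, through myogenin and class IIa deacetylases.

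Before any of these genes, the targeted gene was examined as a check of the labels. *Nup210* was measured at 9.54, 10.79, 11.93 and 8.81 TPM (transcripts as a share of the library, per transcript length) in the libraries labelled *Nup210*-/- and at 5.71, 10.11, 9.19 and 6.71 TPM in those labelled *Nup210*+/+. The transcript was thus not lower in the libraries labelled knockout, with a log2 fold change of 0.44 (SE 0.147, limma, Benjamini-Hochberg adjusted p = 0.231). A value per gene does not show whether exon 2 is present, so it does not check the labels, and every direction below is between libraries as labelled. For this knockout line the study reports total loss of the protein, checked in muscle by immunoprecipitation and immunofluorescence. The library labelled *Nup210*+/+ replicate 2 stood apart: the summed level of 6 genes of granulocyte precursors was 381.69 TPM there and at most 2.12 TPM in the other 7, and that of 6 genes of proliferating cells was 68.53 TPM against at most 18.88 TPM. For *Chrne*, *Runx1*, *Gadd45a* and the gene pairs named below, results are given with and without this library. Comparisons of *Nup210*, of the cell type markers and of the other listed genes are given with it only. The 8 muscle fiber markers examined summed to 80826 to 85224 TPM in the *Nup210*-/- libraries and to 74295 to 77505 TPM in the *Nup210*+/+ libraries, without overlap, and the 12 leukocyte markers to 48.6 to 55.5 TPM and 56.8 to 144.5 TPM. Their part in the results below was not tested. The file gives TPM only, so the read depth behind each value is unknown.

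The 3 sequences printed here are promoter windows of the genes on which the comparison turns: the adult subunit gene *Chrne* and *Gadd45a*, whose genotypes did not overlap after scaling, and the fetal subunit gene *Chrng*, the lowest of the 9. Each window runs from 250 bases before to 50 bases after the RefSeq start on GRCm38.p6, written 5′ to 3′ on the strand of the gene. Capitals mark matches, on either strand, to the E-box CANNTG, which myogenic factors such as myogenin are known to bind, and to the N-box CCGGAA, an element known from promoters that are active in synaptic nuclei.
*Chrne*, chr11:70619145-70619444, minus strand: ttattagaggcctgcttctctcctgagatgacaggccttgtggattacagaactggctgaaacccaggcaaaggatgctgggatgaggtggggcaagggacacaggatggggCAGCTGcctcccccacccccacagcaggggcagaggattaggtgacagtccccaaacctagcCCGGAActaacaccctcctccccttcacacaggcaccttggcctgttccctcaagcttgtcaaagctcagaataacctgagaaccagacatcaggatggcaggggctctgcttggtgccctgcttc
*Chrng*, chr1:87205561-87205860, plus strand: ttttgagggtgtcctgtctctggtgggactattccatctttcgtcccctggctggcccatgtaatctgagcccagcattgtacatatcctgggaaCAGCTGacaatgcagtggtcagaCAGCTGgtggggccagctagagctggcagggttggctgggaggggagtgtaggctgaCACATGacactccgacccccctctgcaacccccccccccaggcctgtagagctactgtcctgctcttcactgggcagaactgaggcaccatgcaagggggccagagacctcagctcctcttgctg
*Gadd45a*, chr6:67037358-67037657, minus strand: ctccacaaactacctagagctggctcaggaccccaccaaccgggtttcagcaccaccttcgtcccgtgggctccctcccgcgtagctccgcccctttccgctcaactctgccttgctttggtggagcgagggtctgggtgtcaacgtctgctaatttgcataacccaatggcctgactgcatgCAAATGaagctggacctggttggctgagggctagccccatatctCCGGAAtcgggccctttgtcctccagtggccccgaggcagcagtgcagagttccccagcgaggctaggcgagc
The *Chrne* window held 1 E-box, whose first base lies 138 bases before the start, and 1 N-box 76 bases before it. The *Chrng* window held 3 E-boxes, at 155, 132 and 75 bases before the RefSeq start, and no N-box. It lies wholly inside the gene span given for *Chrng* below, which begins farther upstream, at chr1:87204657. In *Gadd45a* the E-box lay 67 bases and the N-box 23 bases before the start. RefSeq windows were matched for 7 of the 9 genes, with 2 windows for *Runx1*. *Chrnd* and *Ncam1* were not matched. *Chrna1*, *Chrnb1* and *Musk* held 3 E-boxes each, as did 1 *Runx1* window, while the other *Runx1* window held 1 N-box. Of these 8 windows, 7 held an E-box, 5 held 3 E-boxes and 3 held an N-box. Among all 32851 mouse promoter windows of this length, 72.3% held an E-box, 17.6% held 3 or more and 14.9% held an N-box. The motifs do not overlap in these windows, and a match is only a run of letters, not a site shown to be used.

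Per transcript length, the levels of the 9 genes ranged widely, from *Gadd45a* at the top to *Chrng* below the limit of testing. *Gadd45a*, which encodes a stress and DNA damage response protein, had the highest mean over all 8 libraries, 37.4 TPM ± 4.47 (SD, n = 8), above 83.7% of the 14229 genes tested. *Chrnb1* followed at 15.8 TPM ± 0.689, *Chrne* at 7.69 TPM ± 0.796 and *Musk* at 5.33 TPM ± 1.29 (SD, n = 8 each). *Ncam1* at 4.14 TPM ± 1.63 and *Chrna1* at 4.13 TPM ± 0.470 were next, and *Chrnd* at 1.3 TPM ± 0.330 and *Runx1* at 1.19 TPM ± 0.672 were near the bottom (SD, n = 8 each). *Gadd45a* was above *Chrnb1*, *Chrnb1* above *Chrne*, *Chrna1* above *Chrnd* and *Runx1* above *Chrng* in 8 of 8 libraries, with ranges that did not meet. *Chrne* was also above *Musk* in 8 of 8 libraries, although their ranges met. The order of *Musk* and *Ncam1* held in 6 of 8 libraries, that of *Ncam1* and *Chrna1* in 4 of 8 and that of *Chrnd* and *Runx1* in 6 of 8, so these neighbours did not differ beyond their spread. The genes also differed in how much mice varied: the highest library was 1.16 times the lowest for *Chrnb1*, 1.35 times for *Chrne*, 1.40 times for *Chrna1* and *Gadd45a*, 2.56 times for *Musk*, 2.58 times for *Chrnd*, 3.14 times for *Ncam1* and 4.10 times for *Runx1*.

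**Figure D1:**
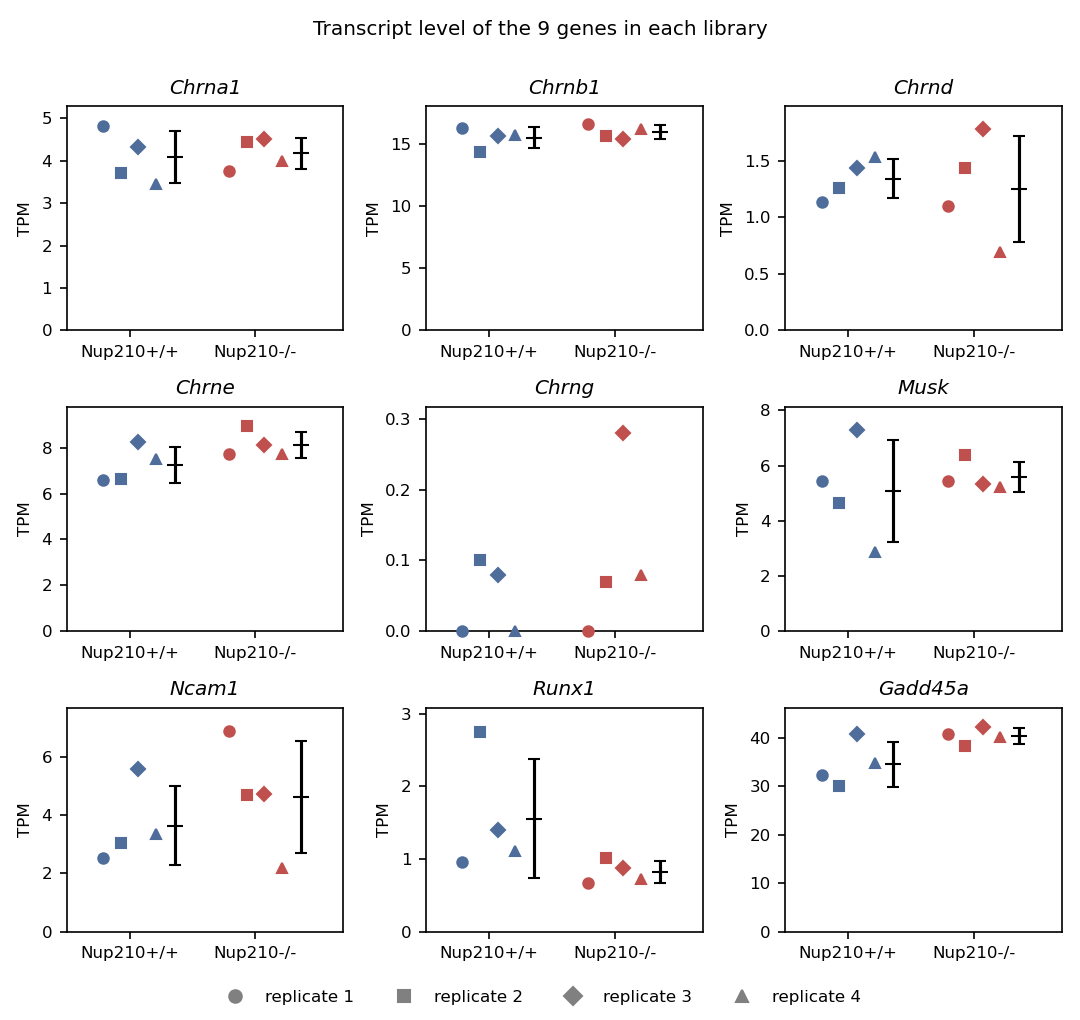
Transcript level (TPM, y axis from 0 in each panel) of the 9 genes in the 4 *Nup210*+/+ (blue) and 4 *Nup210*-/- (red) libraries, with the mean ± SD as a black bar for all genes but *Chrng*. The genotypes overlap in every panel on this scale, and *Nup210*+/+ replicate 2 stands alone at 2.75 TPM of *Runx1*.

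No gene of the 9 differed between genotypes past the threshold. *Chrng* was too low to test, and of the 8 genes tested 0 were called in either direction at an adjusted p of 0.05 (limma, Benjamini-Hochberg over 14229 genes), where 0.112% of all tested genes were called, 7 (0.0492%) higher and 9 (0.0633%) lower in *Nup210*-/-. At an unadjusted p of 0.05, 2 of the 8 were higher in *Nup210*-/- and 0 lower, against 7.00% and 7.18% of all tested genes. These 2 genes, *Chrne* and *Gadd45a*, were also the 2 whose scaled genotypes did not overlap, both with *Nup210*-/- higher, as was so for 4.78% of all tested genes, beside 4.60% with *Nup210*-/- lower and 9.38% in either direction. Of the 8 fold changes 6 were positive and 2 negative, and their median was 0.18 on the log2 scale, beside −0.01 for all tested genes. The 95% interval of each of the 8 differences lay within 1 log2 unit of 0. Fold changes here are on the scale of log2(scaled TPM + 1), which understates the change of low genes such as *Runx1* and *Chrnd*. For such genes 1 unit on this scale is more than a 2-fold change in TPM. In bulk muscle, fewer cells of a type and less RNA per cell cannot be told apart.

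Among the receptor subunits, the alpha subunit gene *Chrna1* (chr2:73563215-73580338, minus strand, GRCm38) encodes the chain that binds acetylcholine. It was measured at 3.75, 4.43, 4.52 and 4 TPM in *Nup210*-/- and at 4.82, 3.72, 4.32 and 3.45 TPM in *Nup210*+/+. The highest and the lowest library were both *Nup210*+/+, and the *Nup210*-/- values lay between them. Its mean was 4.18 TPM ± 0.363 against 4.08 TPM ± 0.614 (SD, n = 4 each), with a log2 fold change of 0.11 and a 95% interval from −0.11 to 0.33 (limma, adjusted p = 0.636).

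The beta subunit gene *Chrnb1* (chr11:69784036-69795943, minus strand) was the most even of the 9. Its levels were 16.60, 15.68, 15.44 and 16.23 TPM in *Nup210*-/- and 16.30, 14.35, 15.70 and 15.77 TPM in *Nup210*+/+. All but the 14.35 TPM of *Nup210*+/+ replicate 2 lay in a narrow band shared by the genotypes. The log2 fold change was 0.13 with a 95% interval from −0.05 to 0.31 (limma, adjusted p = 0.489).

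The delta subunit gene *Chrnd* (chr1:87190607-87200070, plus strand) was the least abundant of the 4 adult subunit genes. It was at 1.10, 1.44, 1.78 and 0.69 TPM in *Nup210*-/- and at 1.14, 1.26, 1.44 and 1.53 TPM in *Nup210*+/+. The *Nup210*-/- libraries held both the highest and the lowest value. The log2 fold change of −0.03, with a 95% interval from −0.40 to 0.34 (limma, adjusted p = 0.952), turned to 0.10 without *Nup210*-/- replicate 4 and to 0.03 without *Nup210*+/+ replicate 4.

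The epsilon subunit gene *Chrne* (chr11:70614883-70619216, minus strand), whose promoter holds the N-box shown above, marks the adult receptor. It was at 7.73, 8.94, 8.15 and 7.73 TPM in *Nup210*-/- and at 6.6, 6.63, 8.25 and 7.52 TPM in *Nup210*+/+. On TPM the genotypes overlapped through *Nup210*+/+ replicate 3, and after scaling of the libraries they did not, with the lowest *Nup210*-/- library at 8.12 and the highest *Nup210*+/+ library at 7.88 scaled TPM. The mean was 8.14 TPM ± 0.570 against 7.25 TPM ± 0.792 (SD, n = 4 each), and the log2 fold change 0.23 had a 95% interval from 0.04 to 0.43 (limma, unadjusted p = 0.0232, adjusted p = 0.271). Its exact permutation p was 0.0286 on scaled values, the smallest that 4 against 4 allows, and 0.143 on TPM as deposited. Without any 1 of the *Nup210*-/- libraries it was 0.0571. Without *Nup210*+/+ replicate 2 the log2 fold change was 0.20, with a 95% interval from −0.01 to 0.40 (limma, unadjusted p = 0.0575). Divided by the muscle fiber markers, which were themselves higher in *Nup210*-/-, *Chrne* had a log2 fold change of 0.05. Under this scaling the median over all tested genes was −0.18, so the lower value is not particular to *Chrne*.

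The gamma subunit gene *Chrng* (chr1:87204657-87212694, plus strand) lies 4586 bases downstream of *Chrnd* and encodes the fetal subunit. It was listed at 0, 0.07, 0.28 and 0.08 TPM in *Nup210*-/- and at 0, 0.10, 0.08 and 0 TPM in *Nup210*+/+. Its level was thus at or near 0 in both genotypes, with the highest value in *Nup210*-/- replicate 3. In the 5 libraries with both transcripts above 0, *Chrng* made up 0.777%, 3.32% and 1.02% of the *Chrng* and *Chrne* transcripts in *Nup210*-/- and 1.49% and 0.960% in *Nup210*+/+. These shares leave out the 3 libraries where *Chrng* was listed at 0 and are given as a description. Over all 8 libraries, with 0.1 TPM added to each gene, the log2 ratio of *Chrng* to *Chrne* was 0.25 higher in *Nup210*-/- (exact permutation p = 0.657).

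The make-up of the receptor transcripts inside a library does not depend on how libraries are scaled. The 5 subunit transcripts summed to 28.7 to 30.6 TPM in *Nup210*-/- and 26.1 to 29.8 TPM in *Nup210*+/+. Over the 8 libraries *Chrnb1* took 51.2% to 56.9% of that sum, *Chrne* 22.9% to 29.3%, *Chrna1* 12.2% to 16.7%, *Chrnd* 2.40% to 5.90% and *Chrng* 0% to 0.928%. The adult receptor protein holds more copies of the alpha subunit than of any other, while its transcript was below *Chrnb1* and *Chrne* in all 8 libraries. Per *Chrna1* transcript there were 3.86 ± 0.469 *Chrnb1* transcripts in *Nup210*-/- and 3.86 ± 0.512 in *Nup210*+/+ (SD, n = 4 each, exact permutation p = 1.00). For *Chrne* the ratio was 1.95 ± 0.114 against 1.81 ± 0.337 (exact permutation p = 0.514) and for *Chrnd* 0.296 ± 0.0925 against 0.338 ± 0.0846 (exact permutation p = 0.486). With 4 ratios tested, *Chrng* included, the lowest Benjamini-Hochberg adjusted p of these exact tests was 0.724. The *Chrne* ratio was lowest in *Nup210*+/+ replicate 1, at 1.37, and without that library the difference was −0.0035.

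**Figure D2:**
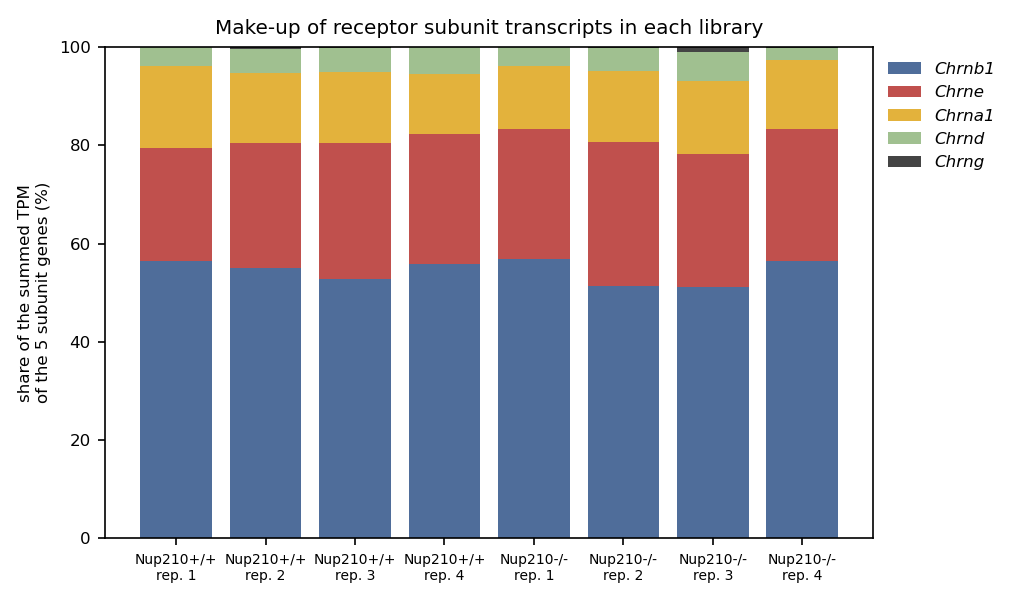
Share (%) of each subunit gene in the summed TPM of the 5 acetylcholine receptor subunit genes, 1 bar per library. *Chrnb1* takes between 51.2% and 56.9% in every library, and *Chrng* is barely visible, at most 0.928% in *Nup210*-/- replicate 3.

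*Musk* (chr4:58285960-58374303, plus strand) encodes the kinase that agrin activates at the synapse. It was at 5.45, 6.40, 5.33 and 5.22 TPM in *Nup210*-/- and at 5.45, 4.66, 7.30 and 2.85 TPM in *Nup210*+/+. The *Nup210*-/- libraries lay close together, and the *Nup210*+/+ libraries spread on both sides of them. Means were 5.60 TPM ± 0.542 against 5.07 TPM ± 1.85 (SD, n = 4 each), and the log2 fold change was 0.25 with a 95% interval from −0.14 to 0.65 (limma, adjusted p = 0.534). It was 0.08 without *Nup210*+/+ replicate 4 and 0.39 without *Nup210*+/+ replicate 3, the highest of its group, where the exact permutation p went from 0.257 to 0.0286. Without any other single library that p was 0.229 to 0.543.

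*Ncam1* (chr9:49502136-49798925, minus strand) encodes an adhesion molecule found at the synapse, on Schwann cells and on satellite cells, and over the fiber after denervation. Its levels were 6.90, 4.71, 4.74 and 2.20 TPM in *Nup210*-/- and 2.53, 3.04, 5.61 and 3.37 TPM in *Nup210*+/+. The *Nup210*-/- libraries again held both the highest and the lowest value. The mean of 4.64 TPM ± 1.92 against 3.64 TPM ± 1.36 (SD, n = 4 each) gave a log2 fold change of 0.33 with a 95% interval from −0.28 to 0.94 (limma, adjusted p = 0.604). This was 0.13 without *Nup210*-/- replicate 1 and 0.57 without *Nup210*-/- replicate 4. Schwann cell markers summed to 40.5 to 54.1 TPM in *Nup210*-/- and 47.7 to 64.8 TPM in *Nup210*+/+. Satellite cell markers summed to 28.1 to 32.7 TPM and 28.8 to 37.6 TPM, with the largest part from *Sdc4* (mean 16.7 TPM). Of the 5 satellite cell markers tested, 4 had positive log2 fold changes and 1, *Sdc4*, a negative one (−0.36). Their median was 0.12, and 0 were called (limma).

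*Runx1* (chr16:92601466-92826149, minus strand) encodes a transcription factor that limits wasting of denervated muscle and is also used in blood cells. It was at 0.67, 1.01, 0.88 and 0.72 TPM in *Nup210*-/- and at 0.96, 2.75, 1.40 and 1.11 TPM in *Nup210*+/+. The highest value was that of *Nup210*+/+ replicate 2, and the genotypes overlapped only between *Nup210*-/- replicate 2 and *Nup210*+/+ replicate 1. The mean was 0.820 TPM ± 0.155 against 1.56 TPM ± 0.817 (SD, n = 4 each), or 1.16 TPM ± 0.224 (n = 3) without that library. The log2 fold change of −0.40 had a 95% interval from −0.85 to 0.06 (limma, adjusted p = 0.407, exact permutation p = 0.0571), and it was −0.20 without *Nup210*+/+ replicate 2 (exact permutation p = 0.114). With other single libraries left out the exact permutation p ran from 0.0286, without *Nup210*+/+ replicate 1, to 0.171, without *Nup210*-/- replicate 1. *Nup210*+/+ replicate 2 is the library with 381.69 TPM of granulocyte precursor genes. All 10 leukocyte markers tested had negative fold changes, as *Runx1* did. Of these 1, *Cd52*, passed the threshold narrowly (log2 fold change −0.81, limma adjusted p = 0.0490). On TPM as deposited *Cd52* did not pass it (limma adjusted p = 0.0562). The part of these blood cell genes in the *Runx1* values was not tested.

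*Gadd45a* (chr6:67035096-67037457, minus strand) takes part in the remodelling of muscle nuclei after denervation. It was at 40.78, 38.35, 42.19 and 40.13 TPM in *Nup210*-/- and at 32.23, 30.12, 40.75 and 34.88 TPM in *Nup210*+/+. On TPM only *Nup210*+/+ replicate 3 reached into the *Nup210*-/- values, and after scaling no library did. Means were 40.4 TPM ± 1.59 against 34.5 TPM ± 4.60 (SD, n = 4 each). The log2 fold change of 0.32 (SE 0.0839, 95% interval from 0.13 to 0.51, limma unadjusted p = 0.00398) did not pass the adjustment (adjusted p = 0.169), and it was 0.26 without *Nup210*+/+ replicate 2. The exact permutation p was 0.0286 on scaled values and 0.0857 on TPM, and 0.0571 on scaled values without *Nup210*-/- replicate 1, 3 or 4. Divided by the muscle fiber markers the log2 fold change was 0.12, beside a median of −0.18 over all tested genes under this scaling. The antisense gene *E230016M11Rik*, which overlaps an exon of *Gadd45a*, was at 0.14 to 0.80 TPM. Antisense neighbours of *Ncam1* and *Runx1* exons were at no more than 0.08 TPM, and whether the counting used strand is not given in the sources used here.

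**Figure D3:**
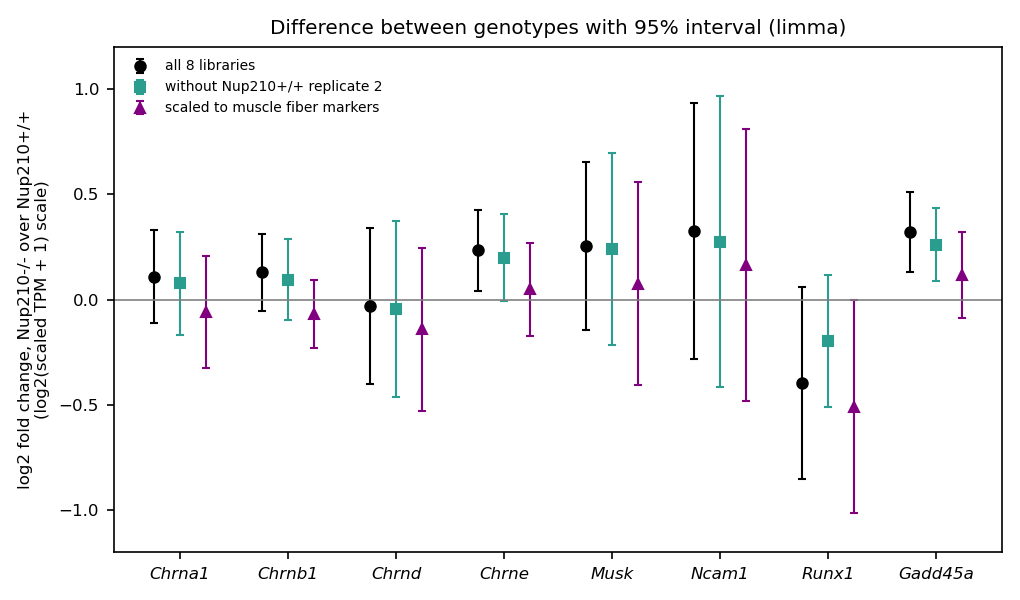
Log2 fold change of *Nup210*-/- over *Nup210*+/+ with its 95% interval (limma, log2(scaled TPM + 1) scale) for the 8 genes tested, with all libraries (black), without *Nup210*+/+ replicate 2 (green) and after scaling to muscle fiber markers (purple). With all libraries the intervals of *Chrne* and *Gadd45a* lie above 0, and under fiber scaling both reach 0 and below, with values of 0.05 and 0.12. Fiber scaling moves the median of all tested genes to −0.18.

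Correlations of the genes with each other across the 8 mice did not pass the correction. Of the 28 pairs among the 8 tested genes, 0 passed a Benjamini-Hochberg adjusted p of 0.05 for Pearson's r or Spearman's rho (exact permutation over pairings). *Chrne* and *Gadd45a* had r = 0.863 (exact p = 0.00920, adjusted p = 0.103) and rho = 0.833 (exact p = 0.0154, adjusted p = 0.215), and r was 0.403 after leaving out the 2 libraries farthest from the median of the first gene and 0.596 within genotypes. *Runx1* and *Gadd45a* had r = −0.792 (exact p = 0.0110, adjusted p = 0.103) and rho = −0.857 (exact p = 0.0107, adjusted p = 0.215). For that pair r was −0.451 without the 2 farthest libraries, −0.650 within genotypes and −0.582 without *Nup210*+/+ replicate 2. *Chrnb1* and *Runx1* had r = −0.771 (exact p = 0.00496, adjusted p = 0.103) and rho = −0.762 (exact p = 0.0368, adjusted p = 0.257), with −0.522 without the 2 farthest libraries and −0.648 within genotypes. *Nup210*+/+ replicate 2 was the lowest library for *Chrne*, *Chrnb1* and *Gadd45a* and the highest for *Runx1* on scaled values. Without it r was 0.782 for *Chrne* and *Gadd45a* and −0.738 for *Chrnb1* and *Runx1*.

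**Figure D4:**
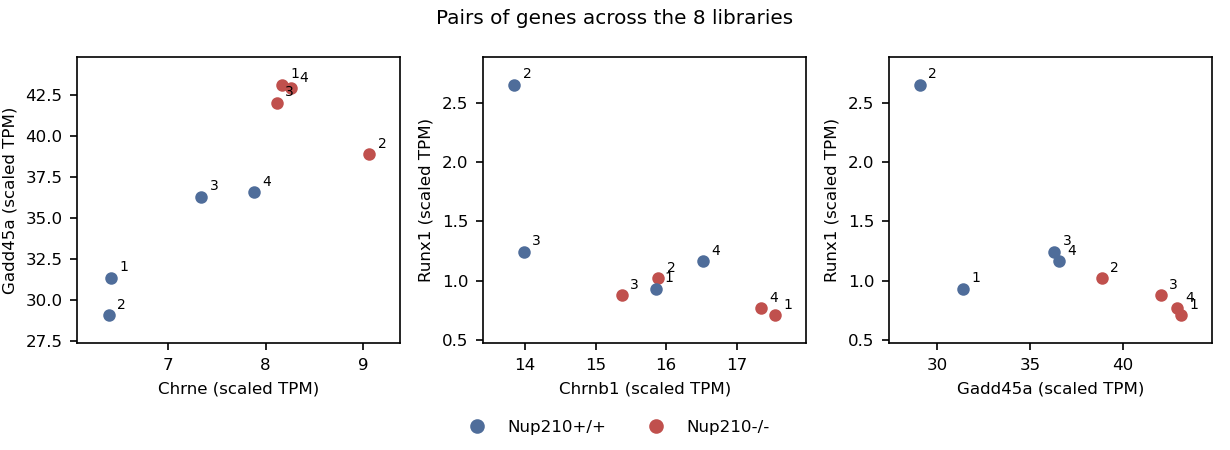
Scaled TPM of *Chrne* and *Gadd45a*, *Chrnb1* and *Runx1*, and *Gadd45a* and *Runx1* in the 8 libraries (blue *Nup210*+/+, red *Nup210*-/-, digits for the replicate). *Nup210*+/+ replicate 2 sits at one end of all 3 panels, alone above 2.5 scaled TPM of *Runx1*.

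The genes whose pattern across libraries was most like the mean profile of the 4 tested subunit genes were *Prpf18* (r = 0.976), *Fto* (r = 0.974), *Nfix* (r = 0.970), *Sirt2* (r = 0.970) and *Mamstr* (r = 0.967), as a description over 8 libraries that share their scaling. In all, 37 tested genes had r above 0.9.

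The other listed genes of the synapse gave no call either. Of 24 listed genes of the endplate and synaptic cleft, 22 were tested and 0 called in either direction (limma), 14 were positive and 8 negative, and the median log2 fold change was 0.11. *Rapsn*, whose product anchors the receptors under the membrane, was highest at 0.22 (21.8 TPM ± 1.51 against 19.7 TPM ± 1.21, SD, n = 4 each, limma adjusted p = 0.297). *Sntb2*, a syntrophin gene, was lowest at −0.19 (1.59 TPM ± 0.428 against 2.10 TPM ± 0.539, limma adjusted p = 0.603). At an unadjusted p of 0.05, 4 of the 22 were higher and 0 lower, where 7.00% and 7.18% of all tested genes were.

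Of 15 other genes induced by denervation, 13 were tested and 0 called (limma), with 7 positive, 6 negative and a median of 0.13. The 3 higher at an unadjusted p of 0.05 were the cell cycle inhibitor gene *Cdkn1a* and the ubiquitin ligase genes *Trim63* and *Fbxo32*. Of the genes tested 0 were lower, where 7.00% of all tested genes were higher and 7.18% lower. On TPM, *Trim63* and *Fbxo32* overlapped between genotypes through *Nup210*+/+ replicate 3, at 253.52 and 104.77 TPM. *Cdkn1a* was the highest of the list: 19.07, 22.88, 15.01 and 21.59 TPM in *Nup210*-/- and 13.53, 13.02, 17.52 and 14.31 TPM in *Nup210*+/+, a log2 fold change of 0.49 (limma adjusted p = 0.189). *Nup210*-/- replicate 3 and *Nup210*+/+ replicate 3 were the libraries through which the genotypes overlapped. *Nnat* was lowest at −0.38 (limma adjusted p = 0.596), with 70.68 TPM in *Nup210*+/+ replicate 3 and 18.13 to 33.86 TPM in the other 7 libraries. *Myog*, the gene of myogenin, was at 4.65, 5.69, 5.30 and 4.04 TPM in *Nup210*-/- and 7.99, 8.04, 4.90 and 5.67 TPM in *Nup210*+/+, with a log2 fold change of −0.27 (limma adjusted p = 0.470). *Gdf5*, too low to test, was at 0.05 to 0.20 TPM in *Nup210*-/- and 0.32 to 0.51 TPM in *Nup210*+/+. *Myog*, *Trim63*, *Fbxo32* and *Gdf5* were named after their values were seen.

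The 2 genes known to be repressed by denervation or to oppose myogenin were both tested and 0 were called (limma). *Hdac9*, whose product represses receptor genes in innervated muscle, was at 3.78, 4.33, 3.8 and 4.2 TPM in *Nup210*-/- and 3.75, 3.26, 3.70 and 1.96 TPM in *Nup210*+/+. All 4 *Nup210*-/- libraries were above all 4 *Nup210*+/+ libraries, narrowly on TPM, with 3.78 beside 3.75 TPM. After scaling they were also apart, as was so, with *Nup210*-/- higher, for 4.78% of all tested genes. The log2 fold change was 0.37 (limma adjusted p = 0.275), and *Nup210*+/+ replicate 4, at 1.96 TPM, was the lowest library. *Dach2* was at 4.08 TPM ± 0.987 against 3.75 TPM ± 0.602 (SD, n = 4 each), a log2 fold change of 0.16 (limma adjusted p = 0.677).

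Of 11 nicotinic receptor subunit genes that are known mainly from neurons and sensory cells, 2 were high enough to test and 0 were called (limma). *Chrna10* was at 8.86, 8.31, 8.65 and 10.65 TPM in *Nup210*-/- and 5.25, 6.82, 7.06 and 6.61 TPM in *Nup210*+/+. No library overlapped, also after scaling, as was so, with *Nup210*-/- higher, for 4.78% of all tested genes. The log2 fold change of 0.53 (SE 0.117, limma adjusted p = 0.121) was larger than that of any of the 4 muscle subunit genes tested. This difference between genes was not tested. *Chrna9* was at 0.12 to 1.59 TPM. *Chrna3*, *Chrna6*, *Chrnb3* and *Chrnb4* were listed at 0 in all 8 libraries. Of 5 relatives and partners of *Runx1* and *Gadd45a*, 3 were tested, all positive, and 0 called (limma). *Gadd45g* was at 64.62, 57.27, 75.31 and 59.58 TPM in *Nup210*-/- and 61.42, 29.47, 37.82 and 34.06 TPM in *Nup210*+/+, where only *Nup210*+/+ replicate 1 reached the *Nup210*-/- values, with a log2 fold change of 0.79 (limma adjusted p = 0.160). *Gadd45b* was lowest at 0.09 (limma adjusted p = 0.790).

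**Figure D5:**
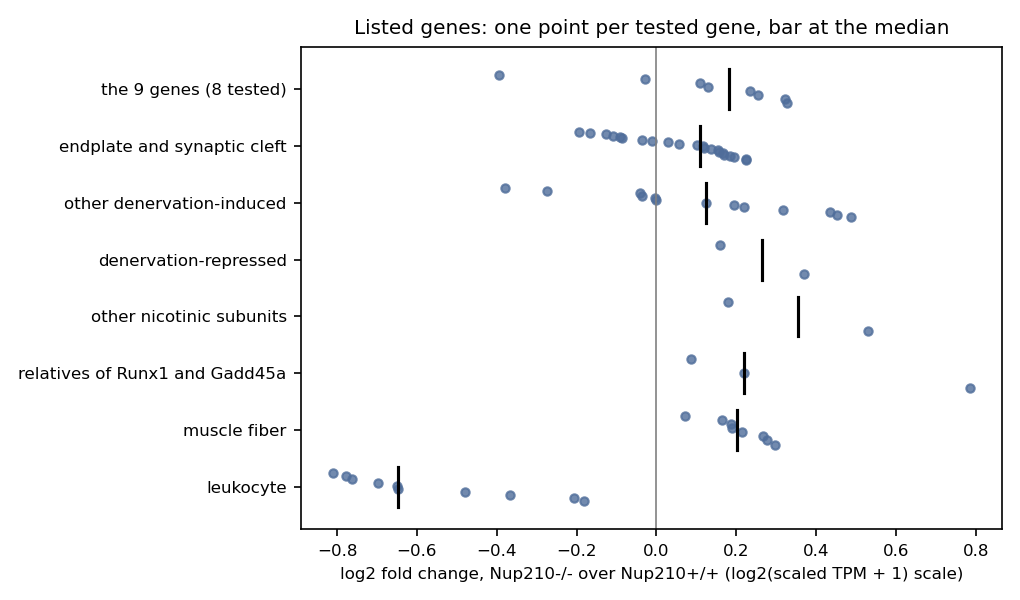
Log2 fold change of *Nup210*-/- over *Nup210*+/+ (log2(scaled TPM + 1) scale), 1 point per tested gene, with the median of each list as a bar. The median is 0.18 for the 9 genes (8 tested), 0.11 for endplate and synaptic cleft and 0.13 for other denervation-induced genes. It is 0.27 for denervation-repressed genes, 0.35 for other nicotinic subunits and 0.22 for relatives of *Runx1* and *Gadd45a*. For muscle fiber markers it is 0.20 and for leukocyte markers −0.65, and all 10 tested leukocyte markers are below 0.

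The labelled tissue was checked against its markers. The 8 muscle fiber markers were all tested, 8 positive with a median log2 fold change of 0.20, and 0 were called (limma). At an unadjusted p of 0.05, 5 were higher and 0 lower, where 7.00% and 7.18% of all tested genes were. Motor neuron cell bodies lie in the spinal cord, and the 5 motor neuron markers summed to 0.03 to 0.17 TPM, with *Chat*, *Isl1* and *Mnx1* listed at 0. Divided by the geometric mean of the fiber markers, *Chrna1* had a log2 fold change of −0.059, *Chrnb1* of −0.067, *Chrnd* of −0.14, *Musk* of 0.08, *Ncam1* of 0.16 and *Runx1* of −0.51, beside a median of −0.18 over all tested genes, which this scaling moves down together. *Runx1* then did not overlap between genotypes (exact permutation p = 0.0286), as was so, with *Nup210*-/- lower, for 15.7% of all tested genes under this scaling.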

How the data were processed

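RNA of 8 quadriceps samples, 1 library per mouse, was measured by single-end RNA sequencing of polyadenylated RNA. Trimming used cutadapt 2.3, alignment to mm10 STAR 2.7.0d and quantification RSEM 1.3.1, per the submitters' processing notes and methods. The authors deposited 1 table of TPM per gene and library, in which every column sums to the same total within rounding. TPM keep no read depth, so no counting interval is given and the precision rests on 4 mice per genotype. The study's count test could not be used on TPM.

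TPM were divided by median-of-ratios factors over the 15225 genes above 0 in all libraries (0.936 to 1.12). Values were log2(scaled TPM + 1). Genes whose TPM averaged 0.5 or more, 14229 in all, entered a limma fit (limma 3.58.1 in R 4.3.3, intensity trend, genotype only, all 8 libraries) with Benjamini-Hochberg adjustment and a threshold of 0.05. For single values, exact permutation tests, two-sided, took all 70 labelings of 4 against 4 (numpy 2.4.6) and cannot go below p = 0.0286. The limma script was tested on simulated data.

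The genes and lists were chosen with earlier results of these data known, and the granulocyte precursor list comes from an earlier look at them. Named genes are the 9, *Nup210*, and in each pathway list the called, highest and lowest genes. Other named genes were chosen after their values were seen. Gene positions are from GENCODE M21 (GRCm38), promoter windows from RefSeq. Alternatives changed the scaling, pseudocount, filter, variance model and libraries. Scaling to fiber markers was chosen after seeing the data. Labels do not say whether mice were littermates.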

Additional observations from a re-analysis of the deposited data

Results flagged for a closer look

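In 8 of 100 groups of 4 libraries, 1 library lay far from the other 3 by Dixon's criterion at 95%. The groups were the 2 genotypes for the 9 genes, *Nup210*, the highest and lowest genes of each list and 2 other genes, the summed lists and the receptor ratios. Chance flags about 1 in 20 independent groups, but these share genes and libraries, and 5 of the 8 are *Nup210*+/+ replicate 2 in lists of granulocyte precursor or proliferating cells, the first of which came from an earlier look at these data. So the number is not set against chance. Other genes of those lists, not examined by this criterion, were also high there, such as *Elane* at 116.69 TPM and *Cdk1* at 17.58 TPM. In *Nup210*-/- replicate 3, *Chrna9* was at 1.32 TPM and at 0.41 to 0.51 TPM in the other 3 *Nup210*-/- libraries. *Cd14* was low in *Nup210*-/- replicate 1, at 2.21 TPM, with the nearest of the others at 2.61 TPM. *Nup210*+/+ replicate 2 had 105.06 TPM of *Ctsg* (next 0.48 TPM), 13.15 TPM of *Cebpe* (next 0.18 TPM) and 11.53 TPM of *Top2a* (next 0.85 TPM). In the same library the granulocyte precursor list summed to 381.69 TPM (next 2.12 TPM) and the proliferating cell list to 68.53 TPM (next 18.88 TPM). The muscle fiber list summed to 85224 TPM in *Nup210*-/- replicate 3, with the next at 81015 TPM. None of the 9 genes met this criterion in either genotype.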

How the results depend on the processing

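No gene of the 9 passed an adjusted p of 0.05 under any of 21 alternatives (limma), the lowest being 0.0746 for *Gadd45a* with library weights. Of 168 fold changes of the 8 tested genes under them, 163 kept their direction and 5 reversed: *Chrna1* (−0.059, exact permutation p = 0.571) and *Chrnb1* (−0.067, exact permutation p = 0.143) under muscle fiber scaling, which moves the median of all genes to −0.18 and so says nothing of these genes alone, *Chrnd* with library weights (0.018), and *Chrnd* when 1 library was left out (range −0.13 to 0.10, exact permutation p 0.400 to 1.00). Intervals of 6 of the 8 stayed within 1 log2 unit of 0 under all settings, while *Ncam1* reached 1.13 and *Runx1* −1.39 with a pseudocount of 0.1. The number of the 9 genes without overlap between genotypes, 2 (*Chrne* and *Gadd45a*), was 0 on TPM as deposited (8.41% of all tested genes), 1 under fiber scaling (*Runx1*, lower; 16.1% of all) and 2 to 4 with 1 library left out (12.2% to 18.4% of all; 4 without *Nup210*+/+ replicate 1, at 12.4%). The exact permutation p of *Chrne* and *Gadd45a* was 0.0286 to 0.0571 with 1 library left out, and 0.514 and 0.257 under fiber scaling. It was 0.0286 for *Musk* without *Nup210*+/+ replicate 3 and for *Runx1* without *Nup210*+/+ replicate 1 or under fiber scaling. The count of all genes higher and lower (7 and 9) was 2 higher on TPM as deposited and without mitochondrial and top genes, 11 higher with a pseudocount of 0.1, 0 and 1 without a filter, 0 and 0 with a mean TPM of at least 0.1, 14 higher with at least 1, 0 and 0 without the trend, 43 and 41 with library weights, 3 and 84 under fiber scaling, and 0 to 2 and 0 to 8 with 1 library left out. With the replicate number as a block it was 0 and 0, and 0 of the 9 genes were called. Same-numbered libraries did not vary together (r from −0.0329 to 0.0857), and 2 of 8 correlated best with their own number, so the numbers were not used as pairs. The difference in the *Chrng* share, 0.484 over the 5 libraries above 0, ranged from −0.323 to 0.950 percentage points, that in *Chrnb1* per *Chrna1* from −0.190 to 0.235 (0.0017 on the log2 scale with a pseudocount of 0.1), and that in *Chrne* per *Chrna1* from −0.0035 to 0.267 with 1 library left out. The cause of these changes was not tested. Depth is unknown, which limits *Chrng*, *Chrnd* and *Runx1* most.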
